A study of Mus musculus with 336 samples.

Results

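The 10 imprinted growth genes described here are H19, Igf2, Dlk1, Meg3, Peg3, Mest, Plagl1, Cdkn1c, Grb10 and Ndn. They were chosen by name, with earlier values of the fibroblasts in view, from 47642 gene IDs, and all 10 were found in each of the 3 expression tables. The tables hold FPKM (fragments by length of the transcript and by size of the library) from mRNA sequencing of mice lacking Bmal1 (Bmal1-/-, KO) and of wild-type mice (WT), all on the C57BL/6 background. Bmal1, listed under its symbol Arntl, encodes the transcription factor that drives the circadian clock together with CLOCK, and the labels name neither a Cre driver nor a tissue to which its loss is limited. The first course followed confluent mouse skin fibroblasts (MSF), the second adult liver cultured as slices about 500 micron thick, and in both all groups had received 100 nM dexamethasone, a synchronising glucocorticoid, for 15 min. Harvest began 48 h later and was repeated every 3 h over 3 days, from CT00 to CT69, so that 24 KO and 24 WT libraries stood in each course. A shorter liver course had 3 KO and 3 WT replicates at each of T00, T06, T12 and T24, with the same dexamethasone treatment. The labels do not say whether the fibroblasts of a genotype came from more than 1 animal or culture, or whether a replicate number of the short course is 1 animal. P-values therefore measure only the spread between these libraries, which may be technical. The KO and WT libraries of a long course were sequenced in different lanes, and for MSF in different pools, so genotype and sequencing cannot be told apart.

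Imprinted genes are transcribed mainly from the allele inherited from 1 parent, and many of them set fetal growth. At the H19/Igf2 domain, CTCF bound to the unmethylated maternal control region lets enhancers reach H19, while the methylated paternal copy lets them reach Igf2, so that the non-coding RNA and the growth factor come from opposite alleles. Dlk1, Mest, Igf2, Peg3, Plagl1 and Ndn are read from the paternal allele, and H19, Meg3 and Cdkn1c from the maternal allele. Grb10 is maternal in most tissues. In the mouse these genes are highly expressed in fetal and early postnatal tissue, are co-expressed as a network in which Plagl1 is a regulator, and are largely silenced in the adult liver. FPKM sum the transcripts of both alleles in an inbred strain, so the parent of origin was not measured.

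Of the 10 genes, 5 lie on chromosome 7, as does Arntl (GRCm38, chr7:113207465-113314126, + strand). H19, a long non-coding RNA, lies at chr7:142575529-142578143 on the - strand, 72.6 kb from Igf2 at chr7:142650766-142666816 on the same strand, and 29.3 Mb from Arntl. Cdkn1c lies 792 kb beyond Igf2, at chr7:143458339-143461050 on the - strand. Ndn (chr7:62346569-62350262, + strand) and Peg3 (chr7:6703892-6730431, - strand) lie 50.9 and 106 Mb from Arntl. Dlk1 (chr12:109452823-109463336, + strand) and Meg3, also a long non-coding RNA (chr12:109541001-109571726, + strand), stand 77.7 kb apart. Mest lies at chr6:30723547-30748465 on the + strand, Plagl1 at chr10:13060504-13131694 on the + strand and Grb10 at chr11:11930508-12038683 on the - strand.

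H19 is the host transcript of a microRNA that restrains growth of the mouse placenta. Its arms are shown because H19 was the member whose low level in KO fibroblasts led to the choice of these genes. They come from RefSeq (GRCm38.p6), with the seed, bases 2 to 8, in capitals. The arms lie inside H19 at chr7:142577112-142577133 and chr7:142577078-142577099, both on the - strand. The microRNA itself was not measured, since the libraries were made from polyadenylated RNA.
mmu-miR-675-5p: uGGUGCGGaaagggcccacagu
mmu-miR-675-3p: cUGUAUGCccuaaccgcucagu

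Promoter windows of 300 bases, from 250 before to 50 after a transcript start, were found in RefSeq (GRCm38.p6) for 8 of the 10 genes, with 15 windows in all. The names without a window were H19 and Cdkn1c. Both strands were searched for the E-box CACGTG, the element to which BMAL1 and CLOCK bind, the cAMP response element TGACGTCA, and the full palindromic glucocorticoid response element. The E-box occurred in 2349 of 32851 windows (7.15%) and in 1 of the 15 windows of these genes, that of a Plagl1 start. The cAMP element occurred in 588 windows (1.79%), among them those of Meg3 and Peg3. The glucocorticoid element occurred in 3 windows, none of these genes. None of the 3 motifs contains another, although the E-box and the cAMP element share the letters ACGT. The Plagl1 window is shown because the time course of this gene differed between the genotypes, with the E-box in capitals 182 bases before the start. The Meg3 and Peg3 windows are shown because they hold the cAMP element, given in capitals 57 and 178 bases before the start. The windows lie at chr10:13090582-13090881 on the + strand, chr12:109540746-109541045 on the + strand and chr7:6730370-6730669 on the - strand. A match is a stretch of letters, and binding was not measured.
Plagl1: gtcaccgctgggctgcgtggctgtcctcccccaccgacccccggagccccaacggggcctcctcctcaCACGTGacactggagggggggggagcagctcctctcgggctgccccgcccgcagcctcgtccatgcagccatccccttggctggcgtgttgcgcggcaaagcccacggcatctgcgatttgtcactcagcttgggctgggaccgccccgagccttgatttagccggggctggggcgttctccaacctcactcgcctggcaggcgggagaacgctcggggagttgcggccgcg
Meg3: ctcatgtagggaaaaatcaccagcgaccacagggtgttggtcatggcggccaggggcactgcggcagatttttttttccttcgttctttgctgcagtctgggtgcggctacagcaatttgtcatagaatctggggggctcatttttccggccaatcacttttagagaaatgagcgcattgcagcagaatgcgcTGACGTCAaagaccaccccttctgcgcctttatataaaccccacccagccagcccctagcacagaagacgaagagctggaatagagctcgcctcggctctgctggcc
Peg3: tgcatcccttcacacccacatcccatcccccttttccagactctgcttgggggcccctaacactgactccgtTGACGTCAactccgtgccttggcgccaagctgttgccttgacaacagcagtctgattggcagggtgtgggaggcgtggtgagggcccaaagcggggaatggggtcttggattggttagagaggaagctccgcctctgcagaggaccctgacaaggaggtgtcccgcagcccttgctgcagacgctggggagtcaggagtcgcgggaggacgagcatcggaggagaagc

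Arntl, the deleted gene, averaged 6.84 ± 0.557 FPKM in KO and 10.6 ± 0.754 FPKM in WT fibroblasts (SD, n = 24 each), 4.09 ± 0.728 FPKM in KO and 4.50 ± 1.05 FPKM in WT slices (n = 24 each), and 2.31 ± 0.512 FPKM in KO and 1.45 ± 0.985 FPKM in WT samples of the short course (n = 12 each). A level over the whole gene does not check the deleted part. Hepatocyte markers summed to at most 0.743 FPKM in any MSF library, with Cyp2e1 and Serpina1a listed at 0 in all of them. Fibroblast markers there summed to 6388 to 25665 FPKM in KO and 5071 to 19558 FPKM in WT. Col1a1, Col1a2 and Col3a1 were listed at 0 in some libraries. All 8 fibroblast markers averaged at least 1 FPKM in both genotypes, but 5 were tested. The other 3 were left out because the quantification had flagged some of their values. A collagen listed at 0 may thus be a failed value rather than absent RNA, and the lowest sums may be too low. Absolute depth is unknown. From the steps between low values, the FPKM worth of 1 read ranged 6.09-fold over the slice libraries and 6.14-fold over the short course, and overlapped between the genotypes in both.

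**Figure D1:**
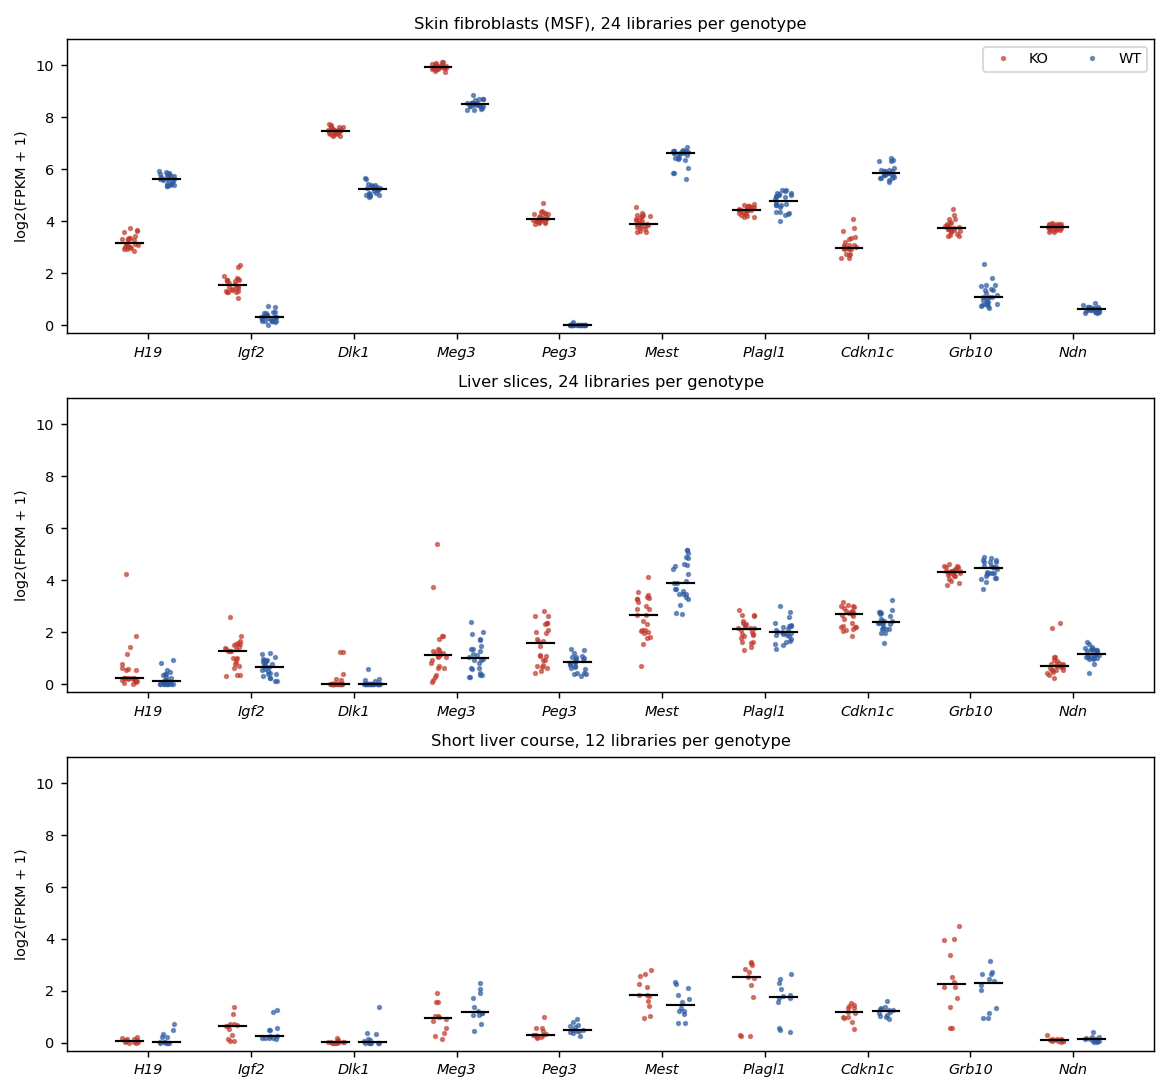
Level of the 10 genes, as log2(FPKM + 1), in every library of the 3 courses. Points are libraries, KO left of WT, and bars are medians. In MSF the KO and WT points of Plagl1 overlap. In both liver courses H19, Dlk1 and Ndn lie near the bottom of the axis in most libraries.

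In skin fibroblasts, KO and WT cells held different sets of these genes. In KO cells, Meg3, Dlk1, Peg3, Ndn, Grb10 and Igf2 stood higher than in WT cells, and H19, Mest and Cdkn1c lower, 9 genes in all. These levels bear on the choice of the genes and are given without a test. Limits for levels were an absolute difference of at least 1 on the log2(FPKM + 1) scale and an adjusted p below 0.05. Of all 15065 genes tested, 16% passed both (6.21% higher and 9.82% lower in KO). By size alone, the 9 genes were inside and Plagl1 outside. Nothing is read from that count. The smallest difference inside was that of Igf2, at 1.26, and Plagl1 stood outside at -0.32. The median over all genes was -0.04.

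Among the non-coding RNAs, H19 had a lowest, median and highest value of 6.19, 7.88 and 12.5 FPKM in KO fibroblasts, against 40.2, 48.7 and 61.1 FPKM in WT fibroblasts. The difference was -2.41 on the log2(FPKM + 1) scale, and its mean stood above 41.6% of the genes with at least 1 FPKM in KO and above 84.2% in WT. Meg3 had 868, 989 and 1112 FPKM in KO, against 307, 365 and 466 FPKM in WT, a difference of 1.44. Meg3 ranked above 99.6% of expressed genes in KO and 98.7% in WT, so it was among the most abundant transcripts of either genotype, while H19 lay below the middle of the expressed genes in KO and well above it in WT.

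The protein-coding partners of these RNAs were both higher in KO. Igf2, the fetal insulin-like growth factor, had 1.08, 1.91 and 4.06 FPKM in KO, against 0, 0.245 and 0.670 FPKM in WT, where 1 library was listed at 0. Its difference was 1.26, at levels that were low in both genotypes. Dlk1, a transmembrane protein that holds back the differentiation of preadipocytes, had 154.5, 177 and 214 FPKM in KO, against 29.4, 37.1 and 49.7 FPKM in WT, a difference of 2.25. Within the H19/Igf2 domain the partners thus differed in opposite directions, and within the Dlk1/Meg3 domain in the same direction.

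Among the regulators of transcription and growth, Peg3, a zinc-finger protein, had 13.95, 16.1 and 25.4 FPKM in KO, against 0, 0.00521 and 0.0804 FPKM in WT. It was listed at 0 in 7 of the 24 WT libraries, and its difference of 4.12 was the widest of the 10 genes. Ndn, which encodes the growth suppressor necdin, had 11.05, 12.7 and 14.2 FPKM in KO, against 0.389, 0.528 and 0.838 FPKM in WT, a difference of 3.16. Grb10, an adaptor that inhibits signalling from the insulin and IGF1 receptors, had 9.81, 12.5 and 21.2 FPKM in KO, against 0.595, 1.11 and 4.14 FPKM in WT, a difference of 2.63. In WT cells Peg3 was listed at or near 0, Ndn was below 1 FPKM in every library, and Grb10 was low but above 1 FPKM on average.

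Cdkn1c and Mest went the other way. Cdkn1c, which encodes the cyclin-dependent kinase inhibitor p57, had 5.01, 6.97 and 16.2 FPKM in KO, against 45.2, 56.4 and 85.3 FPKM in WT, a difference of -2.81. Mest, an enzyme-like protein that accompanies fat cell expansion, had 11.1, 14.1 and 22.3 FPKM in KO, against 48.7, 97.95 and 115 FPKM in WT, a difference of -2.51. Plagl1, the zinc-finger regulator of the network, had 16.9, 20.6 and 24.5 FPKM in KO, against 15.1, 26.4 and 36.3 FPKM in WT, and its ranges overlapped.

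Ordered by mean FPKM, KO fibroblasts held Meg3, Dlk1, Plagl1, Peg3, Mest, Ndn or Grb10, H19, Cdkn1c and Igf2. Peg3 (16.8 ± 2.53 FPKM), Mest (14.9 ± 2.85), Grb10 (13.1 ± 2.68) and Ndn (12.8 ± 0.936) lay within 1 SD of their neighbours, as did H19 and Cdkn1c (SD, n = 24). WT fibroblasts held Meg3, Mest, Cdkn1c, H19, Dlk1, Plagl1, Grb10, Ndn, Igf2 and Peg3. There H19 (49.0 ± 6.22 FPKM) and Cdkn1c (59.8 ± 11.1 FPKM) lay within 1 SD of each other (SD, n = 24).

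Markers of other cell types differed between the fibroblast cultures as well. Of the 4 bile duct markers Krt19, Krt7, Epcam and Spp1, which summed to 58.4 to 154 FPKM in KO and 597 to 904 FPKM in WT, 2 were tested and went opposite ways. Spp1 averaged 15.4 FPKM in KO and 692.5 FPKM in WT, and Krt19 averaged 79.5 FPKM in KO and 7.60 FPKM in WT. The 5 stellate and smooth muscle markers summed to 139 to 231 FPKM in KO and 331 to 415 FPKM in WT. Of the 8 fibroblast markers, 5 were tested, with 1 higher and 3 lower in KO and a median difference of -1.30. Their part in the differences of the imprinted genes was not tested. In bulk RNA, fewer cells of a type and less RNA per cell cannot be told apart.

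**Figure D2:**
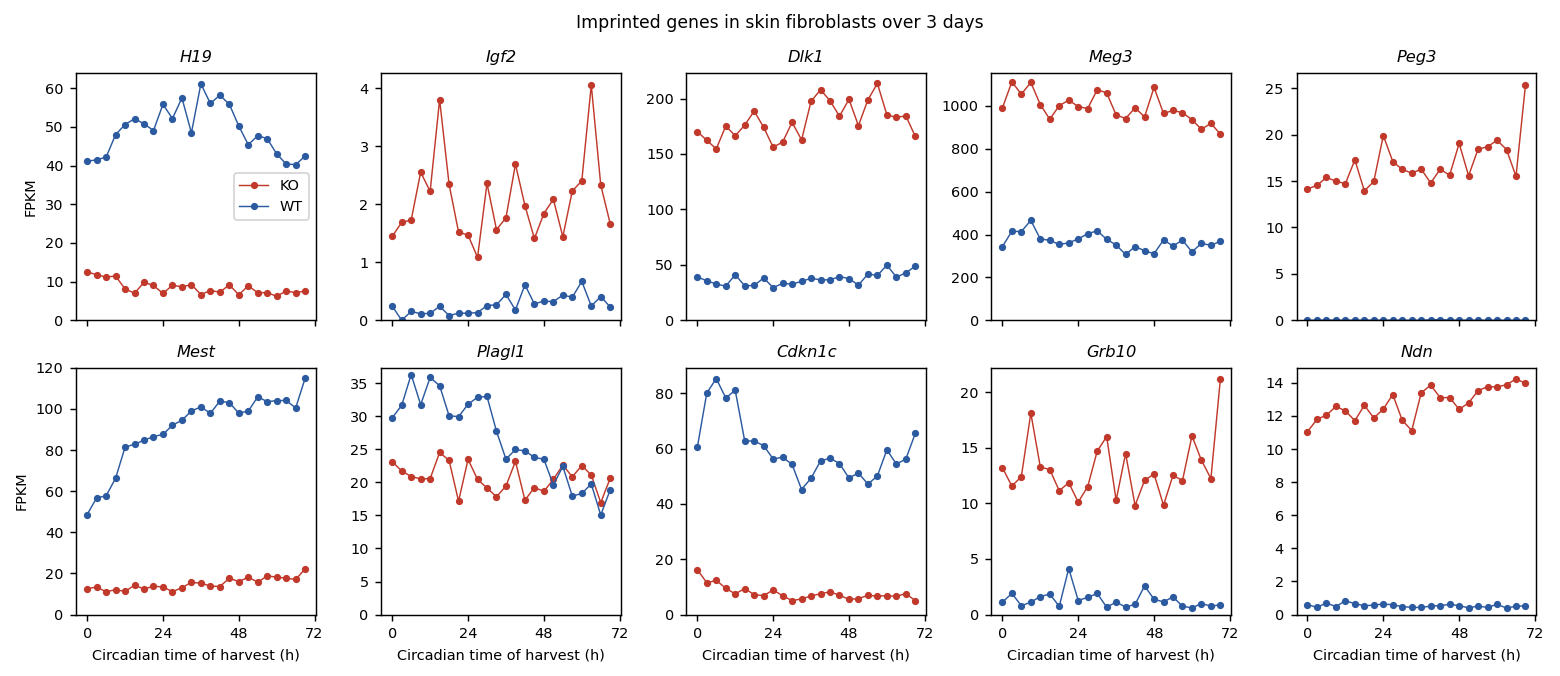
FPKM of the 10 genes in MSF against the circadian time of harvest in h, each point 1 library, KO and WT as separate lines on axes that start at 0. Mest climbed in both genotypes, Plagl1 fell in WT and met the KO values by day 3, and Cdkn1c was highest on day 1 in both.

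Over the 3 days in culture, several of these genes drifted. Days 1, 2 and 3 run from CT00, CT24 and CT48, with 8 libraries of a genotype each. The trend is the slope per 24 h of log2(FPKM + 1), fitted in each genotype with a 24 h wave and tested with limma over all genes, with Benjamini-Hochberg adjustment. In KO fibroblasts 6 of the 10 genes had a trend, and 26.3% of all genes did (14.4% higher and 11.9% lower). Mest rose by 0.24 ± 0.03 per 24 h (SE, adjusted p = 4.9e-06), Peg3 by 0.14 ± 0.04 (adjusted p = 0.00419) and Ndn by 0.08 ± 0.02 (adjusted p = 0.000441). Cdkn1c fell by 0.29 ± 0.07 (adjusted p = 0.00162), H19 by 0.19 ± 0.04 (adjusted p = 0.00217) and Meg3 by 0.06 ± 0.02 (adjusted p = 0.00725). The day means of KO fibroblasts show the sizes, with Mest at 12.6, 14.2 and 17.99 FPKM and H19 at 10.1, 8.07 and 7.28 FPKM on days 1, 2 and 3. The Meg3 call was lost when day 3 was set against day 1 alone (adjusted p = 0.0758).

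In WT fibroblasts 7 of the genes had a mean of at least 1 FPKM and were tested, and 4 had a trend, as did 31.1% of all genes (14.5% higher and 16.6% lower). Mest rose by 0.30 ± 0.04 per 24 h (SE, adjusted p = 4.33e-06, limma), with day means of 70.6, 97.4 and 104 FPKM. Plagl1 fell by 0.35 ± 0.04 (adjusted p = 1.2e-07), with day means of 32.5, 27.8 and 19.4 FPKM. Cdkn1c fell by 0.18 ± 0.05 (adjusted p = 0.00717), and Dlk1 rose by 0.12 ± 0.04 (adjusted p = 0.0195). H19 in WT had day means of 46.9, 55.6 and 44.5 FPKM, highest on day 2, and its slope of -0.03 did not pass. The Dlk1 call was lost without CT15 (adjusted p = 0.0501) or CT69 (adjusted p = 0.0647) and with day 3 against day 1 (adjusted p = 0.0612), and the Cdkn1c call in a fit that allows for correlated neighbouring times (adjusted p = 0.177). In WT the residuals of H19, Mest and Cdkn1c followed those of the preceding time, with lag-1 correlations of 0.68, 0.71 and 0.50, where the median gene had -0.11.

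The slopes of KO and WT differed for 3 of the 10 genes, against 26.4% of all genes (14.9% higher and 11.5% lower), so the share is close to that of all genes. Plagl1 fell in WT and had day means of 21.5, 20.01 and 20.5 FPKM in KO, and its slope was 0.31 ± 0.05 higher in KO than in WT (SE, adjusted p = 8.33e-06, limma). The other calls were Peg3 and Ndn, with slopes 0.15 ± 0.04 and 0.13 ± 0.03 higher in KO. Both were tested only through their KO levels, and in WT they were below 1 FPKM, where log2(FPKM + 1) compresses a slope, so nothing is read from these 2 calls. The slope of H19 was 0.15 lower in KO and did not pass (adjusted p = 0.0719), although it passed without CT15, CT24, CT63, CT66 or CT69 in turn (adjusted p = 0.0288 to 0.0475). Mest rose in both genotypes with no difference of slope past the threshold (-0.05, 95% interval -0.16 to 0.05).

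No 24 h rhythm was called for these genes in fibroblasts by limma at an adjusted p below 0.05. In KO none of the 10 genes tested passed, and 0% of 14713 genes did. Igf2 and Meg3 had an unadjusted p below 0.05, as did 873 of all genes. In WT none of the 7 genes tested passed, and 0.0341% of all genes did. Meg3 had an unadjusted p below 0.05, as did 1060 of all 14658 genes. For the difference of rhythm between KO and WT none of the 10 genes passed, and 0.00664% of all genes did. Igf2 had an unadjusted p below 0.05, as did 705 of all 15065 genes. Igf2 entered that difference only through its KO level. In WT it was below 1 FPKM, where log2(FPKM + 1) compresses a wave, so nothing is read from its value. The fitted wave of Igf2 in KO had an amplitude of 0.29 ± 0.07 on the log2 scale (SE, adjusted p = 0.52). The fit that allows for correlated neighbouring times called 0 of these genes in either genotype.

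**Figure D3:**
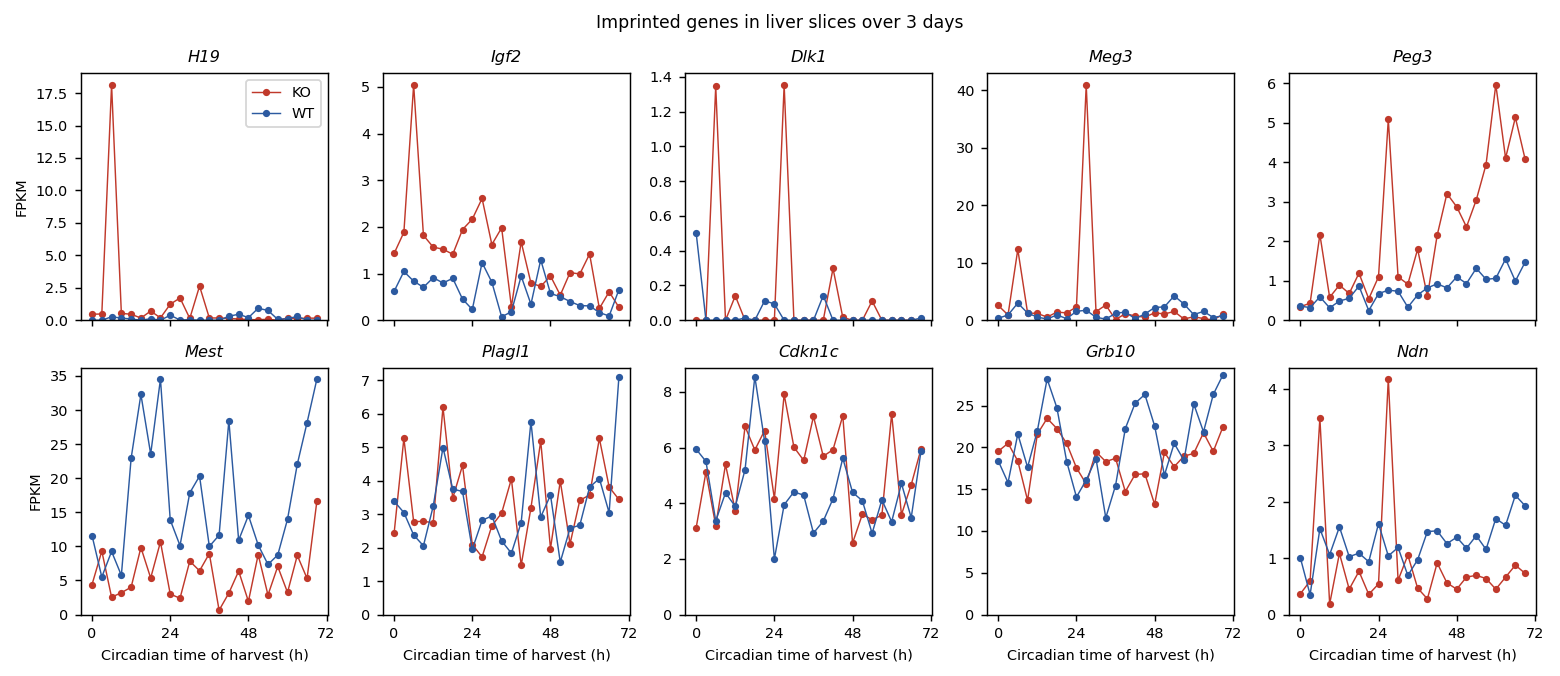
FPKM of the 10 genes in liver slices against the circadian time of harvest in h, each point 1 library, KO and WT as separate lines on axes that start at 0. The KO library at CT06 stands out for H19, Igf2, Dlk1, Meg3 and Ndn, that at CT27 for Dlk1, Meg3 and Ndn, Peg3 climbed in KO, and Mest was higher in WT at most times.

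In liver slices most of the fetal genes were low. H19 had a lowest, median and highest value of 0, 0.176 and 18.1 FPKM in KO slices, against 0, 0.0845 and 0.925 FPKM in WT slices, where it was listed at 0 in 9 of 24 libraries. Dlk1 was listed at 0 in 18 of 24 libraries of each genotype, with highest values of 1.35 FPKM in KO and 0.501 FPKM in WT. Meg3 had 0.0516, 1.16 and 40.9 FPKM in KO, against 0.203, 1.03 and 4.24 FPKM in WT. The contrast with fibroblasts, in which Meg3 lay between 307 and 1112 FPKM and Dlk1 between 29.4 and 214 FPKM, is given without a test because the tables were normalised separately. Grb10 had 13.2, 19.1 and 23.5 FPKM in KO slices and 11.6, 21.04 and 28.7 FPKM in WT slices, beside 13.1 FPKM in KO fibroblasts on average.

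The 2 KO slice libraries that stood apart also stood apart in markers of connective tissue. At CT06, H19 was at 18.1 FPKM and Meg3 at 12.3 FPKM, and at CT27, H19 was at 1.72 FPKM and Meg3 at 40.9 FPKM. Dlk1 was at 1.35 FPKM in both. The 8 fibroblast markers summed to 991 FPKM at CT06 and 1252 FPKM at CT27, against a median of 44.3 FPKM and a lowest sum of 14.3 FPKM over all KO slices, and 99.4 to 555 FPKM in WT slices. The next KO library, CT33, had a sum of 329 FPKM and 2.63 FPKM of H19. The 5 stellate and smooth muscle markers summed to 437 FPKM at CT06 and 73.3 FPKM at CT27, in a range of 12.4 to 437 FPKM in KO and 17.01 to 85.5 FPKM in WT. The part of these cells in the levels of the imprinted genes was not tested.

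Across the 48 slice libraries, centred within genotype on the log2 scale, the summed fibroblast markers correlated with Meg3 at r = 0.81 (rho = 0.63), Ndn at 0.76 (0.49), H19 at 0.75 (0.61) and Dlk1 at 0.70 (0.35). The correlation was 0.50 for Igf2 (rho = 0.29), 0.02 for Peg3 and -0.22 for Mest. Mest and Grb10 instead went against the summed hepatocyte markers, at -0.60 and -0.54. These are descriptions, and the libraries share scaling and depth as well as tissue. Igf2 correlated with the fibroblast markers at 0.76 in KO and at -0.44 in WT, each over 24 libraries.

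**Figure D4:**
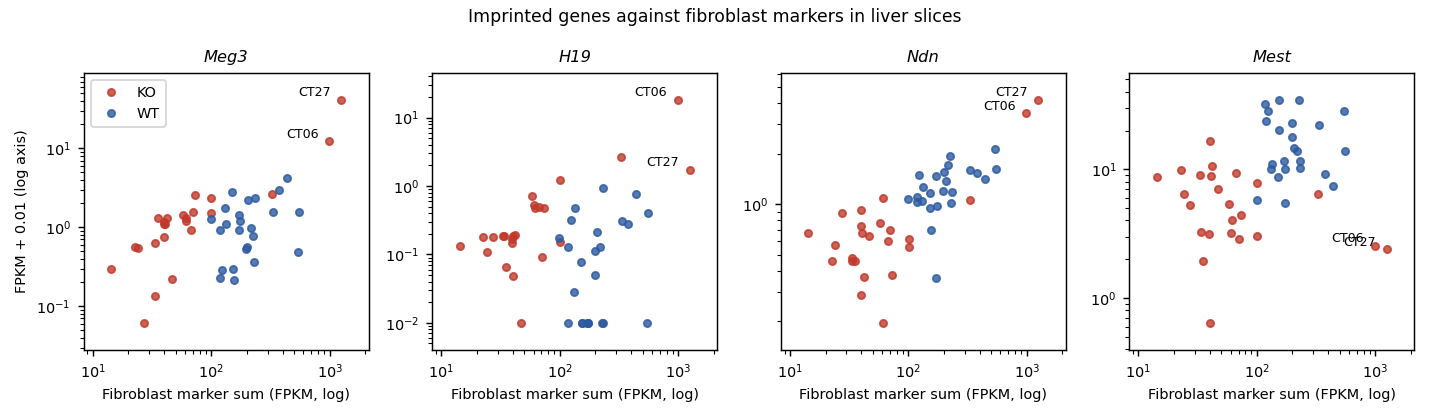
FPKM of Meg3, H19, Ndn and Mest in liver slices against the summed FPKM of 8 fibroblast markers, both on log axes, each point 1 library and 0.01 added to each gene's FPKM. The KO libraries at CT06 and CT27 lie at the right of each panel, with marker sums of 991 and 1252 FPKM, high for Meg3, H19 and Ndn and low for Mest.

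Between the genotypes, 8 of the 10 genes had a mean of at least 1 FPKM over the 48 slice libraries and were tested, and H19 and Dlk1 were not. Mest was the 1 gene called at the limits of size and adjusted p used in fibroblasts, which 5.23% of all genes passed (1.18% higher and 4.05% lower in KO). It had a lowest, median and highest value of 0.631, 5.33 and 16.6 FPKM in KO slices, against 5.51, 13.9 and 34.5 FPKM in WT slices. The ranges overlapped, and the difference was -1.39 ± 0.20 on the log2 scale (SE, adjusted p = 7.18e-08, limma). It was -1.31 without the KO libraries at CT06 and CT27. The median over all genes was -0.34, and after rescaling by median-of-ratios factors, which brings that median near 0, Mest stood at -1.04. Mest was lower in KO in the slices as it was in fibroblasts, but not in the short liver course, where its difference was 0.39 (95% interval 0.06 to 0.72, adjusted p = 0.0925) and passed without WT replicate 1 (adjusted p = 0.0161). Cell type markers differed between KO and WT slices as well. All 6 macrophage markers were lower in KO, with a median of -2.03, and so were 5 of 8 fibroblast markers, with a median of -1.26, and the fetal hepatocyte marker Afp, at -1.52. Of 7 hepatocyte markers 2 were higher, with a median of 0.53. Their part in the Mest difference was not tested.

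Igf2, Peg3 and Ndn differed in the slices by less than the size limit. Peg3 averaged 2.26 ± 1.71 FPKM in KO and 0.788 ± 0.361 FPKM in WT (SD, n = 24 each), a difference of 0.71 ± 0.10 (SE). Igf2 averaged 1.44 ± 1.00 FPKM in KO and 0.601 ± 0.354 FPKM in WT, a difference of 0.55 ± 0.10. Without KO CT06 and CT27 its mean was below 1 FPKM, and it was not tested. Ndn had a median of 0.622 FPKM in KO and 1.22 FPKM in WT, a difference of -0.36 ± 0.11. Peg3 and Igf2 averaged below 1 FPKM in WT and Ndn below 1 FPKM in KO, so each was tested only through its higher genotype, and the differences are given as descriptions. Without a size limit all 3 passed, as did 72.8% of all genes. The sign of Ndn was opposite to that in fibroblasts, and after rescaling its difference was -0.17.

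Plagl1, Cdkn1c and Grb10 lay close together in the slices of both genotypes. Plagl1 averaged 3.38 ± 1.23 FPKM in KO and 3.25 ± 1.27 FPKM in WT (SD, n = 24 each), with a difference of 0.04 and a 95% interval of -0.17 to 0.25. Cdkn1c averaged 5.16 ± 1.56 FPKM in KO and 4.44 ± 1.37 FPKM in WT, with a difference of 0.17 and an interval of -0.03 to 0.38. Grb10 averaged 18.8 ± 2.70 FPKM in KO and 20.7 ± 4.65 FPKM in WT, with a difference of -0.12 and an interval of -0.25 to 0.02. After rescaling, Cdkn1c stood at 0.50 (adjusted p = 7.03e-05) and Grb10 at 0.27 (adjusted p = 0.000779, limma), so the direction of Grb10 depends on the scaling.

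Peg3 rose and Igf2 fell over the 3 days in KO slices. Peg3 rose by 0.72 ± 0.11 per 24 h (SE, adjusted p = 0.00181, limma), with day means of 0.854, 2.00 and 3.94 FPKM in KO and 0.468, 0.714 and 1.18 FPKM in WT. Igf2 fell by 0.38 ± 0.09 (adjusted p = 0.0202), with day means of 2.08, 1.48 and 0.758 FPKM in KO and 0.784, 0.641 and 0.377 FPKM in WT. These were 2 of the 8 genes tested in KO, where 5.75% of all genes had a trend (1.96% higher and 3.79% lower). In WT 0 of 6 genes tested passed, against 20.1% of all genes. Meg3 and Ndn had an unadjusted p below 0.05, as did 4953 of all 14631 genes. Peg3 and Igf2 were not tested in WT because their means were below 1 FPKM. The difference of slope passed for 0 of 8 genes in limma, against 0.0687% of all genes. Meg3 and Peg3 had an unadjusted p below 0.05, as did 1400 of all 14566 genes. The slope of Peg3 was 0.44 ± 0.12 higher in KO (adjusted p = 0.16), for a gene tested only through its KO level. Hepatocyte markers also moved over the 3 days in KO slices, where 3 of 7 fell and 0 rose, with a median of -0.73 per 24 h, and in WT slices, where 4 of 7 fell. Their part in these trends was not tested.

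No rhythm of these genes was called in the slices by limma. In KO 0 of 8 genes tested passed, against 11.2% of all genes. Meg3 had an unadjusted p below 0.05, as did 4162 of all 14224 genes. The Meg3 fit holds the KO libraries at CT06 and CT27, which stood apart for this gene. Its amplitude was 0.75 and ran from 0.45 to 0.87 without single time points. In WT 0 of 6 passed, against 1.98% of all genes. Meg3, Mest, Plagl1 and Grb10 had an unadjusted p below 0.05, as did 2852 of all 14631 genes. Mest in WT slices came nearest, with an amplitude of 0.71 ± 0.16 on the log2 scale (SE), a peak at CT 17.8 h and an adjusted p of 0.0504. It passed without CT06, CT24, CT30, CT36, CT39, CT45 or CT63 in turn, and the fit that allows for correlated neighbouring times called 2 of the 6 genes. The difference of rhythm between KO and WT passed for 0 of 8 genes, against 4.13% of all genes. An unadjusted p below 0.05 was reached by 0 of the 8, and by 3334 of all 14566 genes.

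**Figure D5:**
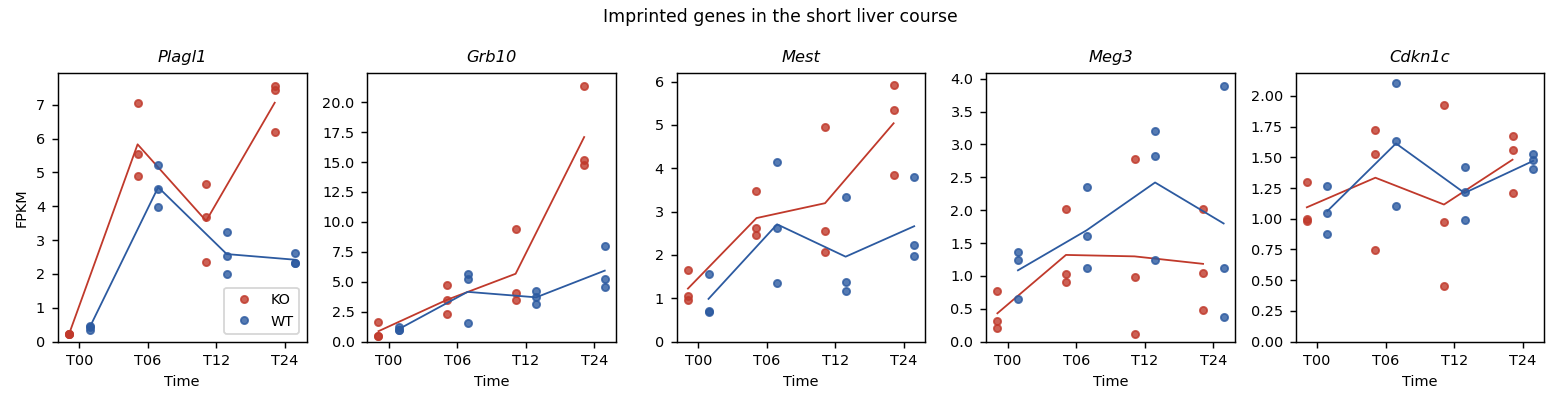
FPKM of the 5 genes tested in the short liver course at T00, T06, T12 and T24, each point 1 sample, KO left of WT, and lines through the means of 3 samples on axes that start at 0. At T24 the KO samples of Plagl1 and Grb10 lie above all WT samples.

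In the short liver course Plagl1 rose from T00 in both genotypes, and at T24 it was higher in KO than in WT. At T00 it had 0.223, 0.215 and 0.220 FPKM in KO, against 0.474, 0.350 and 0.416 FPKM in WT. At T06 it had 7.07, 5.55 and 4.88 FPKM in KO, against 5.21, 4.50 and 3.97 FPKM in WT. At T24 it had 7.43, 6.19 and 7.57 FPKM in KO, against 2.32, 2.31 and 2.62 FPKM in WT. The ranges overlapped at T06 and lay apart at T24, with KO higher. At T00 the KO values were the lower ones, with all values of both genotypes below 1 FPKM. The difference at T00, of -0.21 ± 0.16, did not pass (SE, adjusted p = 0.62, limma). The KO minus WT difference at T24 was 1.23 ± 0.16 on the log2(FPKM + 1) scale (SE, adjusted p = 0.00015, limma), a contrast that 17.9% of all genes passed.

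Plagl1 was also the 1 of 5 tested genes whose time course differed between the genotypes, with a widest difference of change from T00 of 1.45 (adjusted p = 0.0123, limma), against 1.75% of all genes. The call was lost without KO replicate 3 (adjusted p = 0.0618) or without WT replicate 1, 2 or 3 (adjusted p = 0.123, 0.101 and 0.0736). Averaged over the times, Plagl1 was 0.41 ± 0.08 higher in KO (SE, adjusted p = 0.00161), again 1 of 5 genes, against 18.7% of all genes (7.75% higher and 11% lower). With 1 mean for each replicate number, 3 KO against 3 WT, the adjusted p was 0.0634.

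Grb10 also stood higher in KO at T24. It had 1.61, 0.485 and 0.497 FPKM in KO at T00, against 1.23, 0.947 and 0.971 FPKM in WT, and 14.7, 21.4 and 15.2 FPKM in KO at T24, against 4.56, 7.95 and 5.27 FPKM in WT. At T06 and T12 it averaged 3.49 and 5.66 FPKM in KO and 4.15 and 3.69 FPKM in WT. The KO samples of T24 were all above the WT samples, with a difference of 1.40 ± 0.35 (SE, adjusted p = 0.012, limma), while the difference between the time courses, at 1.58, did not pass (adjusted p = 0.178). Mest had 5.93, 3.85 and 5.34 FPKM in KO at T24, against 2.23, 3.79 and 1.96 FPKM in WT, and its difference there of 0.74 did not pass (adjusted p = 0.108).

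Time itself changed 3 of the 5 genes, and 80.5% of all genes. The largest changes from T00, averaged over the genotypes, were 2.52 for Grb10 (adjusted p = 4.47e-07, limma), 2.22 for Plagl1 (adjusted p = 2.67e-11) and 1.16 for Mest (adjusted p = 0.000804), all of them rises. Meg3 and Cdkn1c did not pass. Fibroblast markers rose with time as well, 5 of the 7 tested, with a median of 1.05, and so did 3 of 5 stellate and smooth muscle markers, with 1 falling. Their part was not tested. H19, Igf2, Dlk1, Peg3 and Ndn had means below 1 FPKM in the short course and were not tested, with highest values of 0.648, 1.61, 1.61, 0.982 and 0.353 FPKM in any sample.

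Within the fibroblasts the pairs given here did not move together over the libraries, and they do not stand for all pairs of these genes. Centred within genotype over 48 libraries, H19 and Igf2 correlated at r = -0.17, Dlk1 and Meg3 at -0.43, and Mest and Cdkn1c at -0.57. In the slices, H19 and Igf2 correlated at 0.60, which was 0.75 in KO and -0.06 in WT. Dlk1 and Meg3 correlated at 0.67, which was 0.85 in KO and -0.25 in WT, and their rank correlation was 0.22. Mest and Plagl1 correlated at 0.72 (rho = 0.74), and Plagl1 and Grb10 at 0.66. In the short course Mest, Plagl1 and Grb10 correlated at 0.78 to 0.80 over 24 libraries. These values are descriptions over libraries that share a time course.

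The gene whose values over the 48 fibroblast libraries were most like H19, of 10645 with a mean of at least 5 FPKM and centred within genotype, was Cd80 (r = 0.68). In the slices the 3 most alike were, of 9575 genes, Myl9, Hand2 and Des (0.88, 0.87 and 0.87), where Myl9 and Des encode proteins of smooth muscle and stellate cells. H19 was low in most slice libraries and highest in the KO library at CT06. There the stellate and smooth muscle markers summed to 437 FPKM, against a median of 19.6 FPKM over KO slices. The likeness was not computed on ranks or without that library. For Igf2 the 3 most alike were Wdtc1, Gm13886 and Vcp-rs in fibroblasts (0.58, 0.55 and 0.53), and Tgfbi, Pold2 and Il11ra1 in the slices (0.68, 0.68 and 0.62).

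Other imprinted genes were counted from lists chosen by name. Of 19 other genes read from the paternal allele 11 were tested, and 2 were higher and 2 lower in KO, where 6.21% of all genes were higher and 9.82% lower, with a median of 0.20 on the log2 scale against -0.04 over all genes. Snrpn, in the Prader-Willi region with Ndn, averaged 3.43 FPKM in KO and was listed at 0 in all 24 WT libraries. It was among the 2 higher genes and was tested only through its KO level. Nnat averaged 13.6 FPKM in KO and 5.57 FPKM in WT, and Peg10 and Slc38a4 were lower in KO, by -1.55 and -1.38. Of 16 maternally expressed genes 9 were tested, and 2 were higher and none lower, with a median of 0.45. They were Rian, at 460 FPKM in KO and 208 FPKM in WT, and Mirg, at 51.4 FPKM in KO and 24.3 FPKM in WT, which are non-coding RNAs of the same domain as Meg3. Usp29 and Zim1, neighbours of Peg3, averaged 0.356 and 0.282 FPKM in KO and were listed at 0 in all 24 WT libraries. They were below the filter, not tested, and chosen after their values were seen. Neighbours did not all share the direction of a member. Slc22a18, next to Cdkn1c, differed by 1.00 where Cdkn1c differed by -2.81, and Peg12, in the region of Snrpn and Ndn, by -0.15, both under the size limit. Peg12 was chosen after its values were seen.

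Of 9 genes that keep or set imprints 7 were tested in fibroblasts, with 1 higher and 2 lower and a median of -0.08, beside the same shares of all genes. The maintenance DNA methyltransferase Dnmt1 averaged 13.8 FPKM in KO and 37.9 FPKM in WT, and its partner Uhrf1, which brings it to replicating DNA, 6.48 FPKM in KO and 38.7 FPKM in WT. The de novo enzyme Dnmt3a averaged 20.5 FPKM in KO and 9.19 FPKM in WT. Of 8 genes of IGF signalling and of the RNA-binding proteins that carry Igf2 mRNA 7 were tested, with Igf2bp2 and Igf2bp3 higher (1.07 and 1.05) and Hmga2, a chromatin protein of fetal growth, lower (-2.21) in KO, and a median of 0.53. In the order given here, the 4 lists had 9, 11, 6 and 5 genes tested between KO and WT slices, of which limma called 0 at the same limits, against 5.23% of all genes. Their medians were -0.26, -0.10, -0.33 and -0.10 against -0.34 over all genes. An unadjusted p below 0.05 was reached by 8, 6, 4 and 3 of the genes, and by 10826 of all 14566 genes tested. In the short course Igf2bp2 was higher by 0.53 (adjusted p = 0.015, limma) and Zfp445, which guards imprints, fell by 0.33 in KO (adjusted p = 0.00098).

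Reads at H19, Cdkn1c and Mest may be shared with genes annotated on the opposite strand, and whether the strand was used in quantification is not given in the sources used here. Gm27786, a small RNA model inside H19 (chr7:142577849-142577918), averaged 259 FPKM in KO and 2377 FPKM in WT fibroblasts, the same direction as H19, and was chosen after its values were seen. Gm44732, antisense within Cdkn1c, averaged 1.74 FPKM in KO and 12.97 FPKM in WT. Copg2, which overlaps the end of Mest, averaged 20.6 FPKM in KO and 19.4 FPKM in WT fibroblasts, without the difference seen for Mest there. In the slices it averaged 7.64 FPKM in KO and 11.2 FPKM in WT, and in the short course 6.21 FPKM in KO and 5.33 FPKM in WT. In both liver courses the direction was that of Mest. Reads of these overlapping pairs cannot be told apart.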

How the data were processed

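The deposited tables give 1 FPKM value per gene and library, computed by the authors. Per the submitters' processing notes, TopHat2 2.1.0, Cuffdiff and the GRCm38 genome were used. For the annotation release, the scaling between libraries and the use of strand, the entry is: not given in the sources used here. Runs of the same library (3 in the long courses, 2 in the short course) contribute to a single column and were treated as technical. The stated 3 samples per time point correspond to a single column in both long courses. Quality marks (FAIL or HIDATA) removed 118 genes from the MSF table, none of them among the 10 genes.

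A pseudocount of 1 FPKM was added before taking log2. Genes averaging at least 1 FPKM over the libraries compared were fitted using limma 3.58.1 (R 4.3.3) with a variance trend, and Benjamini-Hochberg adjustment covered all genes tested. Long courses were fitted with a 24 h cosine and sine and a linear trend per genotype, and rhythms were tested by F on both wave terms. Calls needed an adjusted p below 0.05 and, for levels in the long courses, a difference of at least 1. The short course was fitted with 1 mean per time and genotype. The fits were tested on simulated data. Depth is unknown, so no counting interval is given.

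The members and lists were chosen with earlier results of these data known. Named genes were the 10 members, Arntl, up to 4 genes per list by smallest p, and the 3 genes most like H19 and Igf2 in each long course, of which some are not reported here. KO and WT libraries of the same time or replicate number were not paired in the reported fits. Correlations of their deviations from the group means ran from -0.0652 to 0.101 in MSF and, over the short liver samples, from -0.113 to 0.0893. In slices they ran from -0.127 to 0.363 (median 0.0934, 11 of 24 times over 0.1). The slice values do not show that shared times were without a common part. The characteristics of 1 sample give another time than its title, and the title was used.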

Additional observations from a re-analysis of the deposited data

Results flagged for a closer look

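The slope of Plagl1 differed between KO and WT fibroblasts by a direct test, 0.31 higher per 24 h in KO on the log2(FPKM + 1) scale. The slopes of Peg3 and Ndn also passed that test, at 0.15 and 0.13, but both genes were below 1 FPKM in WT, where this scale compresses a slope, and were tested only through their KO levels, so nothing is read from these values. In the short liver course the change of Plagl1 with time differed between KO and WT, with a widest difference of 1.45 at T24. The slope test in fibroblasts was passed by 26.4% of all genes, and the short-course call was lost in 4 of the 6 fits that left out a replicate. The 2 differences of Plagl1 were unlike, a fall over the days in WT fibroblasts and higher KO values at T24 in liver. In the slices its slopes in KO and WT differed by -0.04 (adjusted p = 0.97, limma).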

How the results depend on the processing

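Of the counts compared under the alternatives, 455 equalled the reported count or stayed within 1.5 times of it, 21 were larger and 5 smaller. The 455 include counts of 0 that stayed 0. They also include the number of members higher in KO fibroblasts, which had to be equal. The fit with correlated neighbouring times and the fits without KO CT06 and CT27, the 6 slice libraries of lowest correlation or the short-course library of lowest correlation were chosen after seeing the data. Rhythms in WT slices, with 0 genes called, gave 1 with a pseudocount of 0.1, without a trend term or without day 2, 3 with day as a factor, 2 with correlated neighbouring times, and 0 to 2 when single time points were left out. Level differences in slices, with 1 gene called, gave 3 with a pseudocount of 0.1 and 4 without a size limit. Trends in WT slices, with 0, gave 1 without a filter on low values, 1 with correlated neighbouring times, and 0 to 2 without single time points. Differences of trend in slices, with 0, gave 1 without KO CT06 and CT27. Level differences in the short course, with 1, gave 2 in the fit with a replicate block, 0 with 1 mean per replicate number, and 1 to 2 when replicates were left out. Its differences of time course, with 1, gave 0 to 1. The replicate block changed no other count by over 1.5 times. Single values that changed sign were all of genes not called in the reported fit. They were the Meg3 difference of time course in the short course (-0.715 to 0.738 when replicates were left out, taken at the time of widest difference), the Meg3 difference of trend in MSF (-0.00776 after rescaling, and -0.0113 to 0.0310 without single time points), the level differences in slices of Grb10 (0.27 after rescaling), Plagl1 (-0.00911 without day 1, and -0.00602 to 0.0777 without single time points), Cdkn1c (-0.0335 without day 2) and Meg3 (-0.0134 without day 2, and -0.0381 without KO CT06 and CT27), and the Mest difference of trend in slices (-0.00946 for day 3 minus day 1, and -0.0115 to 0.174). Without the 6 libraries of lowest correlation the WT slice trends were -0.0442 for Mest and -0.0176 for Plagl1. Without single time points the trends ran from -0.0243 to 0.0395 for Igf2 and -0.0289 to 0.0716 for Grb10 in KO MSF, -0.0421 to 0.0445 for Plagl1 and -0.0296 to 0.175 for Mest in KO slices, and -0.0181 to 0.0937 for Mest and -0.0402 to 0.0657 for Plagl1 in WT slices, and the Plagl1 difference of trend in slices from -0.108 to 0.0281. The cause was not tested. Unknown depth limits statements on genes below 1 FPKM.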

Other observations

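Several companions of the 10 genes also drifted differently in KO and WT fibroblasts, by limma with Benjamini-Hochberg adjustment over all genes, of which 14.9% had a higher and 11.5% a lower slope in KO. Of 11 other paternally expressed genes tested, 4 had a higher and 3 a lower slope in KO. Their median was 0.02, where the median of all genes was 0.01. Among the 4 was Snrpn, listed at 0 in all WT libraries and tested only through its KO level, so nothing is read from its call. Of 9 maternally expressed genes 3 were higher and 0 lower, with a median of 0.02. Impact, an inhibitor of the stress kinase GCN2, had the widest, 0.27 ± 0.02 higher per 24 h (SE, adjusted p = 9.57e-14), and Peg10, a retrotransposon-derived gene, had a slope that fell by 0.25 ± 0.04 relative to WT (adjusted p = 1.1e-06). Of 7 genes of IGF signalling 1 had a higher and 4 a lower slope, with a median of -0.11, Igf2bp3 at -0.49 ± 0.05 (adjusted p = 8.09e-12) and Hmga2 at -0.45 ± 0.03 (adjusted p = 1.18e-14). Of 7 genes that keep or set imprints 1 was higher and 3 lower, with a median of -0.07, Uhrf1 at -0.43 ± 0.08 (adjusted p = 7.3e-05) and Dnmt1 at -0.12 ± 0.02 (adjusted p = 2.25e-06).

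In the short liver course time changed 7 of 8 other paternally expressed genes tested, 4 rising and 3 falling, and 8 of 10 maternally expressed genes, 5 rising and 3 falling, where 80.5% of all genes changed. Nnat rose by 2.11 (adjusted p = 1.11e-06) and Slc38a4, an amino acid transporter, fell by 2.31 (adjusted p = 4.35e-06, limma) at their widest change from T00. Phlda2, which restrains placental growth in mice, rose by 1.68 (adjusted p = 5.39e-07), and Slc22a18, its neighbour, fell by 2.24 (adjusted p = 2.65e-07). Hmga2 rose by 3.32 (adjusted p = 4.47e-08) and Igf2bp2 by 2.30 (adjusted p = 9.82e-08).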
